A study of Mus musculus with 6 samples.

Results

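The core circadian clock genes Arntl, Clock, Per1, Per2, Per3, Cry1, Cry2, Nr1d1, Nr1d2 and Dbp were taken by name from the transcript models of 6 RNA-seq libraries of GL261 cells. GL261 is a mouse glioma line. All 10 names were found among 58600 genes, and the files write Arntl rather than its other name, Bmal1. The values are TPM, a level per transcript length that has the same sum in all libraries, added up over the models of each gene. A scaling factor per library, the median ratio of its genes to the geometric mean of the 6 libraries, was then divided out.

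In the textbook loop, the proteins CLOCK and BMAL1 (from Arntl) bind as a pair to E-box elements and activate Per, Cry, Nr1d1, Nr1d2 and Dbp. The PER and CRY proteins then inhibit that pair. The receptors REV-ERBα (from Nr1d1) and REV-ERBβ (from Nr1d2) repress Arntl through ROR elements, and DBP activates genes through D-box elements. Glial cells and many cultured lines express these genes.

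RNA was taken 4 h after the cells received sodium propionate or, in the control group, sodium chloride, each given in the labels as 1 uM. The propionate group holds the libraries numbered 1, 4 and 5 and the chloride group those numbered 1, 2 and 3, and no genotype or other agent is named. Total RNA libraries were made with a stranded kit. Whether a group's libraries are separate cultures is not stated, and p-values therefore reflect a spread that may be technical. With 1 time and no synchronising step named, phase and amplitude cannot be read from them.

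Covered bases ranged from 9.15 to 11.3 Gb per library. Chloride 3 and propionate 1 stood apart, with 71452 and 71192 transcript models at any coverage against 81178 to 82370 in the other 4 libraries. Of 10 glioma and neural markers 9 had a mean of at least 1 TPM. The summed level of the 10 was 3545 to 3970 TPM in chloride and 3824 to 4206 TPM in propionate. Most of it was Vim, at 2764 to 3402 TPM. Nes, Sox2, S100b, Cspg4 and Cd44 averaged 54.0 to 343 TPM, and Gfap, Fabp7, Olig2 and Pdgfra 0.933, 1.39, 1.51 and 5.79 TPM. Of 7 microglia and macrophage markers 2 reached a mean of 1 TPM, and Itgam and Tyrobp were listed at 0 in every library. Their sums were 4.61 to 6.26 TPM and 4.76 to 6.14 TPM for all 7. No lymphoid marker of 4 and no endothelial marker of 3 reached it, with sums of at most 0.293 TPM. Of 4 fibroblast and pericyte markers 1 did (sums of 1.05 to 1.21 TPM and 1.22 to 1.97 TPM), and of 4 neuronal markers 1 did, Tubb3, with sums of 78.0 to 79.0 TPM and 73.9 to 89.8 TPM. Across the 15564 genes tested with limma on log2(scaled TPM + 1), 1 gene passed a Benjamini-Hochberg adjusted p of 0.05. This was the predicted gene Gm17201, named here after its values were seen, which was listed at 0 in chloride 1, 2 and 3 and stood at 23.1, 13.5 and 15.9 TPM in propionate 1, 4 and 5.

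Because the loop is wired through promoter elements, the RefSeq promoter sequences of the members were searched on both strands, from 250 bases before to 50 bases after each start. There were 13 promoters for 9 members on GRCm38.p6. Per2 was not among them. The E-box CACGTG was found in Cry1 and Per1 and in 7.15% of all 32851 promoters of the same length. The sequences below run 5′ to 3′ on the gene's strand, with the motif in capitals.
Cry1 E-box, first base 60 before the start, chr10:85185094-85185129, minus strand: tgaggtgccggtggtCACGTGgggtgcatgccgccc
Per1 E-box, first base 166 before the start, chr11:69098768-69098803, plus strand: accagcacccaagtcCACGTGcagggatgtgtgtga

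The E-prime box CACGTT, a related binding element, was found on the opposite strand, where it reads AACGTG, in Cry1, Cry2 and Nr1d1. It was held by 4.68% of all promoters. Cry1 thus held an E-prime box and an E-box close together in its promoter.
Cry1 E-prime box, first base 79 before the start, chr10:85185113-85185148, minus strand: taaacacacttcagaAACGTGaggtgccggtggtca
Cry2 E-prime box, first base 166 before the start, chr2:92434215-92434250, minus strand: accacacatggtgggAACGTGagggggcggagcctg
Nr1d1 E-prime box, first base 28 before the start, chr11:98775385-98775420, minus strand: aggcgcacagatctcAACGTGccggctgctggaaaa

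The D-box, searched as TTATGTAA and TTACGTAA, was found in Per3 at 2 places and in 1.06% of all promoters. The ROR element, searched as TAGGTCA and TGGGTCA, was found in Arntl and in 6.45% of all promoters. The cAMP element TGACGTCA, held by 1.79% of all promoters, was in no member's window. No motif searched holds another, and no match overlapped another. These are matches of letters in these windows, not measured binding sites.
Per3 D-box, first base 205 before the start, chr4:151044848-151044885, minus strand: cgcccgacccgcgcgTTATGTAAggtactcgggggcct
Per3 D-box, first base 158 before the start, chr4:151044801-151044838, minus strand: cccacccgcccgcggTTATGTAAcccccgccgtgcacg
Arntl ROR element, first base at position 31 of a start, chr7:113207530-113207558, plus strand: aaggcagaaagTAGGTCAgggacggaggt

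The 10 genes covered a wide range of levels in GL261 cells, with Clock, Nr1d2 and Arntl at the top and the Per genes at the bottom in every library. Clock had the highest mean over the 6 libraries, 40.9 TPM, followed by Nr1d2 at 38.2, Arntl at 30.4 and Cry1 at 10.7 TPM. Cry2 stood at 3.44, Nr1d1 at 2.66, Dbp at 2.47, Per1 at 1.51, Per3 at 1.01 and Per2 at 0.297 TPM. The median gene tested was at 12.4 TPM, so that the activators and Nr1d2 lay above it and the 3 Per genes near the bottom of the tested range or under it. Neighbours in this order overlapped in their 6 values for Clock with Nr1d2, Nr1d2 with Arntl, Cry2 with Nr1d1 and Nr1d1 with Dbp. The 6 values of Arntl and Cry1, Cry1 and Cry2, Dbp and Per1, Per1 and Per3, and Per3 and Per2 did not overlap.

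**Figure D1:**
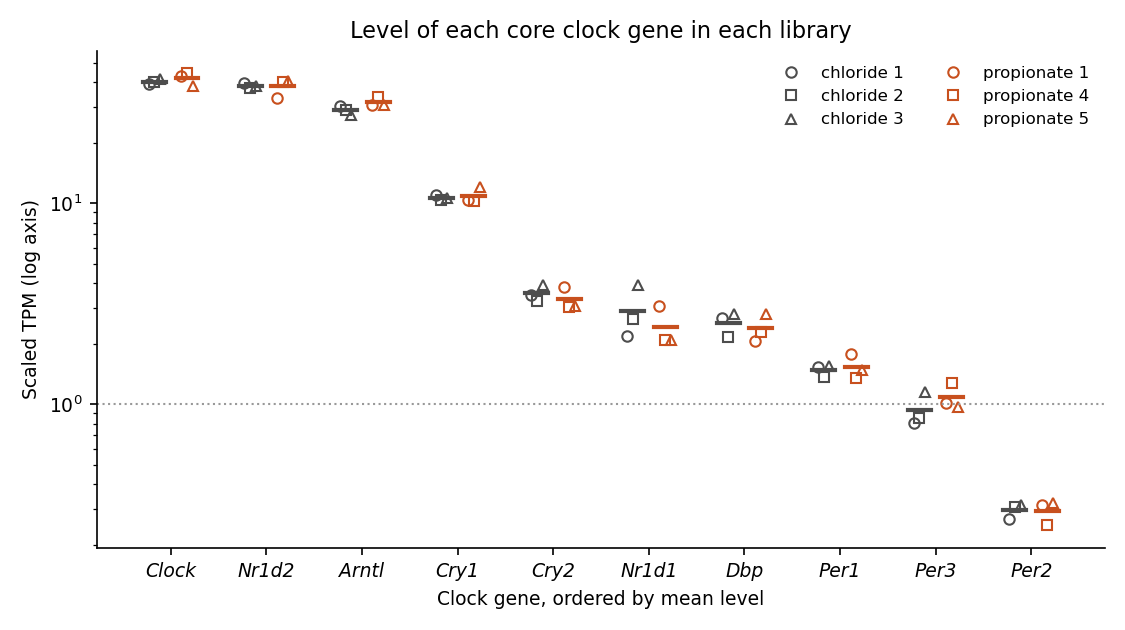
Level of each clock gene as scaled TPM on a log axis, 1 point per library, with a bar at the mean of each group of 3; the dotted line is 1 TPM. Clock, Nr1d2 and Arntl lie near the top at means of 30.4 to 40.9 TPM, Per2 lies below the line in all 6 libraries, and the points of both treatments overlap for each gene except Arntl.

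No clock gene above the filter on low values passed the test between propionate and chloride. Of 9 members with a mean of at least 1 TPM, 0 passed an adjusted p of 0.05 in limma, against 0.00643% of all genes tested, and 0 had an unadjusted p under 0.05, against 5.09%. Per2 was below the filter and did not enter this test. By sign alone 5 members were higher and 4 lower in propionate, beside 8060 and 7504 of all genes tested. The median log2 difference of the members was 0.03, beside 0.0057 over all genes tested. The libraries of both groups did not overlap for 1 member, Arntl, against 11.7% of all genes. In bulk RNA, a change in the share of cells expressing a gene and a change in RNA per cell cannot be told apart.

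The activator arm comes first. Arntl (chr7:113207465-113314126, plus strand, mm10), which encodes BMAL1, stood at 30.5, 29.1 and 27.4 TPM in chloride 1, 2 and 3, and propionate 1, 4 and 5 had 30.7, 33.8 and 30.7 TPM. The propionate libraries all lay above the chloride libraries, the lowest of them just above chloride 1. The group means were 29.0 ± 1.53 and 31.7 ± 1.79 TPM (SD, n = 3 each), and the log2 difference was 0.13 (SE 0.07; limma, adjusted p = 0.918). The 95% interval of the ratio of scaled TPM + 1 ran from 0.973 to 1.22. With voom on read numbers estimated from coverage, the log2 difference was 0.20 with an unadjusted p of 0.0228 (limma, adjusted p = 0.574). On the TPM as deposited, before scaling, the values were 33.2, 28.8 and 28.2 in chloride and 29.8, 32.6 and 29.7 in propionate. Those values overlap, so the separation of the groups was present on the scaled values alone.

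Clock (chr5:76209868-76304792, minus strand), whose protein is the partner of BMAL1, stood at 39.2, 40.1 and 41.3 TPM in chloride and 42.7, 44.2 and 38.1 TPM in propionate. The groups overlapped, with propionate 5 the lowest of all 6. The log2 difference was 0.05 (SE 0.07; limma, adjusted p = 0.940). The interval of the ratio of scaled TPM + 1 was 0.921 to 1.16. Clock exceeded Arntl in each library, and the log2 ratio of the pair was 0.47 ± 0.11 in chloride and 0.39 ± 0.08 in propionate (SD, n = 3 each). Relatives that can stand in for this pair differed widely in level: Npas2, a relative of Clock, was at most 0.0075 TPM, and Arntl2, a relative of Arntl, was at 7.91, 8.43 and 7.66 TPM in chloride and 6.003, 6.77 and 7.08 TPM in propionate. For Arntl2, all propionate values were under all chloride values, with a log2 difference of -0.24 (SE 0.09; limma, adjusted p = 0.918).

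The repressor arm was led by the cryptochromes. Cry1, the stronger repressor of the pair, stood at 10.95, 10.3 and 10.5 TPM in chloride and 10.4, 10.3 and 11.97 TPM in propionate. Apart from propionate 5, which was highest, the values of both groups lay close together and overlapped. The log2 difference was 0.03 (SE 0.08; limma, adjusted p = 0.969). Cry2 stood at 3.51, 3.27 and 3.90 TPM in chloride and 3.84, 3.06 and 3.07 TPM in propionate. The groups overlapped, and chloride 3 and propionate 1, the libraries with fewer covered models, were the highest for this gene. The log2 difference of Cry2 was -0.08 (SE 0.12; limma, adjusted p = 0.942) over all libraries and -0.11 in the other 4. Cry1 was 3.12 times Cry2 on the means of the 6 libraries.

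The period genes encode the scaffolds that bring casein kinase to the repressor complex, and they are also immediate targets of cAMP and glucocorticoid signals. Per1 stood at 1.53, 1.37 and 1.54 TPM in chloride and 1.78, 1.35 and 1.48 TPM in propionate. The groups overlapped, with propionate 1 the highest and propionate 4 the lowest. The log2 difference was 0.03 (SE 0.14; limma, adjusted p = 0.985). The interval of the ratio of scaled TPM + 1, 0.807 to 1.29, was wider than for the abundant members. At so low a level it understates the interval of the ratio of the TPM values themselves. Per3 stood at 0.811, 0.855 and 1.15 TPM in chloride and 1.01, 1.27 and 0.968 TPM in propionate. These groups also overlapped, and the log2 difference was 0.10 (SE 0.17; limma, adjusted p = 0.944). Per2 stood at 0.270, 0.307 and 0.315 TPM in chloride and 0.316, 0.250 and 0.323 TPM in propionate. Its range in both groups was nearly the same, and it rested on 72 to 97 reads per library as estimated from coverage and a read length of 101 bases, against 10804 to 13850 for Clock. It was left out of the test by the filter, and with no filter on low values its log2 difference was -0.0014 (limma, adjusted p = 0.997).

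The feedback receptors differed widely in level. Nr1d2 stood at 39.4, 37.3 and 38.1 TPM in chloride and 33.5, 40.1 and 40.6 TPM in propionate. Propionate 1 was the lowest and propionate 5 the highest, so the groups overlapped. The log2 difference was -0.01 (SE 0.08; limma, adjusted p = 0.989). Nr1d1 stood at 2.18, 2.67 and 3.91 TPM in chloride and 3.08, 2.08 and 2.08 TPM in propionate. It spread more between libraries than any other member tested, and the highest libraries were chloride 3 and propionate 1, those with fewer covered models. The log2 difference of Nr1d1 was -0.19 (SE 0.20; limma, adjusted p = 0.936) over all libraries and -0.15 in the other 4. The part of library coverage in this spread was not tested. Nr1d2 was 14.3 times Nr1d1 on the means of the 6 libraries.

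Dbp, a transcription factor that acts on D-box elements and is a common readout of CLOCK and BMAL1 activity, stood at 2.67, 2.16 and 2.81 TPM in chloride and 2.07, 2.28 and 2.82 TPM in propionate. The groups overlapped almost fully. The log2 difference was -0.07 (SE 0.14; limma, adjusted p = 0.961). Dbp shared 539 exonic bases, 18.0% of its own, with Sphk2 on the other strand (7.85 TPM), and Nr1d1 shared 263, 8.55% of its own, with Thra on the other strand (5.48 TPM). The deposited quantification names no strand option, so reads in these stretches cannot be assigned to either gene with certainty. As a reading of the balance between arms, the log2 ratio of Nr1d1 to Arntl was -3.36 ± 0.50 in chloride and -3.74 ± 0.37 in propionate, and that of Dbp to Arntl was -3.52 ± 0.23 and -3.74 ± 0.26 (SD, n = 3 each). The log2 ratio of Nr1d1 to Cry1 was -1.91 ± 0.45 and -2.20 ± 0.40, and that of Per2 to Cry1 was -5.16 ± 0.16 and -5.20 ± 0.16. The libraries of both groups overlapped in all of these ratios.

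**Figure D2:**
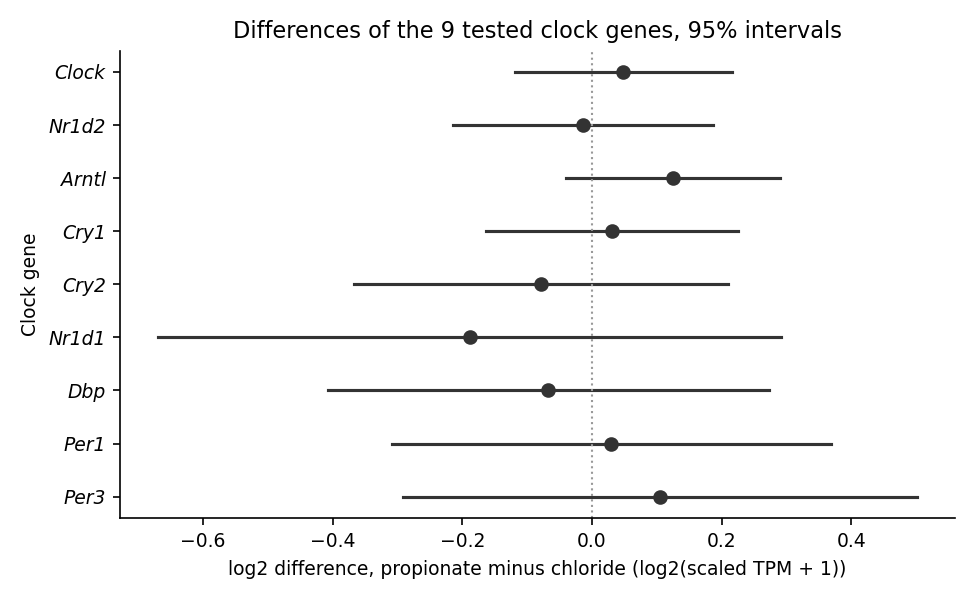
log2 difference of each tested clock gene, propionate minus chloride, on log2(scaled TPM + 1), with its 95% interval from limma. All 9 intervals cross 0, from the narrow ones of Clock and Arntl (SE 0.07 each) to that of Nr1d1 (SE 0.20).

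The genes whose pattern over the 6 libraries was most like that of Nr1d1 were Tedc1 (Pearson r of 0.993), Pank4 (0.989) and Mast3 (0.989), among 11148 named genes. All 3 were higher in chloride 3 and propionate 1 than in the other libraries, as Nr1d1 was. Tedc1 stood at 8.13, 8.87 and 11.4 TPM in chloride and 9.91, 8.002 and 8.17 TPM in propionate. Such a match over 6 libraries is a description and was picked from many genes.

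Transcript models showed what the gene totals hold. The 10 genes had 51 models, 7 of them listed at 0 in every library. Of 17 models tested, 0 passed an adjusted p of 0.05, against 0.0364% of all 35755 transcripts tested, 1 had an unadjusted p under 0.05, against 4.58%, and 1 had groups that did not overlap, against 12.3%. Cry1 and Nr1d1 were almost wholly a single reference model each, with 99.4% and 91.6% of the level. Per1 was split between a model starting at the promoter shown above (56.6% of its level) and a model that starts farther upstream and ends earlier (42.2%). Coverage of Per1 per Gb was 1.17 over exons of the first part of the gene and 0.433 over exons of the second part. This fall had set in before the end of the upstream-starting model, which lies in exon 20, counted over all models. Exons 15 to 19 had means of 0.573, 0.373, 0.335, 0.287 and 0.243 over the 6 libraries. The last exon, after that end, had a mean of 0.514.

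**Figure D3:**
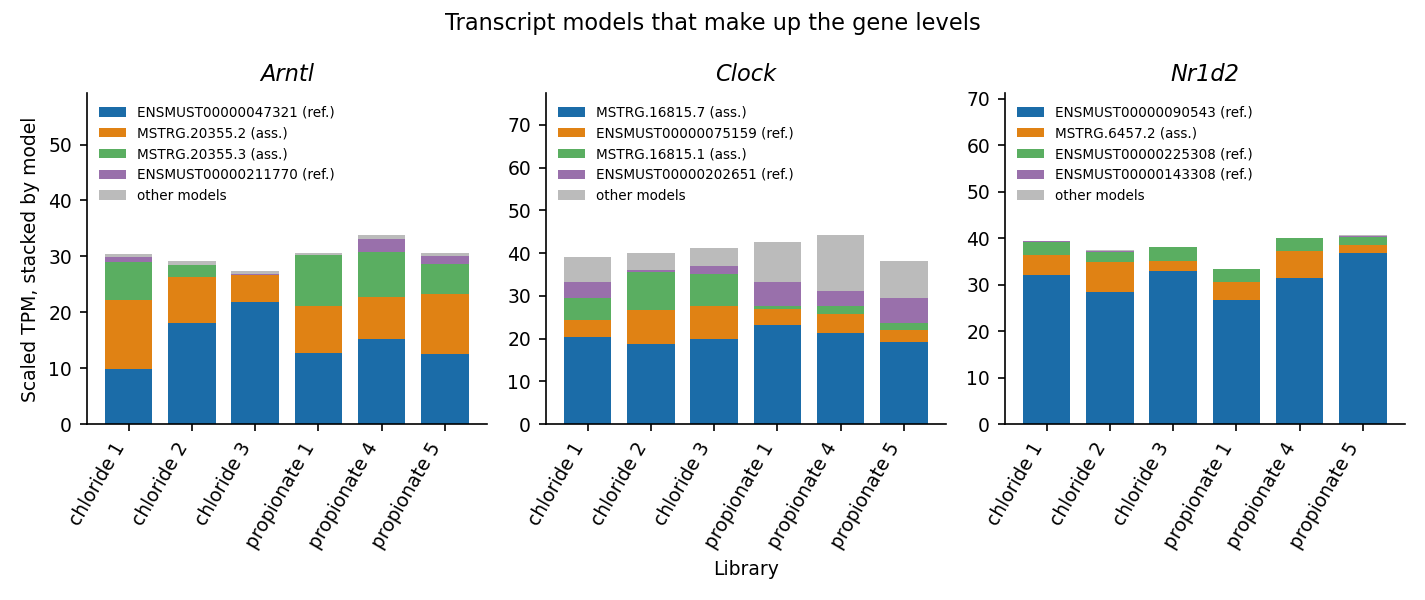
Scaled TPM of Arntl, Clock and Nr1d2 in each library, stacked by transcript model (ref., reference; ass., assembled by the authors). The assembled shorter model makes up 50.03% of Clock, and the split of Arntl between its reference model and its assembled models shifts from library to library while the total stays between 27.4 and 33.8 TPM.

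Clock was the member whose level depended most on an assembled model. Its leading model, with 19 exons and 3727 nt, held 50.03% of the Clock level and stood at 20.4, 18.8 and 19.9 TPM in chloride and 23.2, 21.3 and 19.3 TPM in propionate. It ends in an exon at chr5:76231682-76233594 that the Clock models with later exons pass over as intron. That stop lies before 5 of the 20 coding exons of the annotated transcript, which hold 1026 of its 2565 coding bases. The same exon contains the processed pseudogene Ube2n-ps1 of Ube2n, a ubiquitin-conjugating enzyme gene whose own level was 65.7 to 76.9 TPM. Ube2n-ps1 itself was listed at no more than 0.0021 TPM. How far reads of Ube2n account for that exon's coverage was not tested.

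Coverage was also read along Clock. Per Gb of covered bases, the 14 exons before that stop averaged 14.7, 14.9 and 16.0 in chloride and 12.8, 14.4 and 13.6 in propionate. The internal exons after it averaged 8.43, 7.59 and 10.7 in chloride and 9.22, 8.86 and 7.15 in propionate. The terminal exon of the shorter model stood at 12.3, 10.8 and 11.7 in chloride and 16.0, 14.5 and 11.7 in propionate. On these averages coverage was thus lower after the stop than before it in each library, in both groups. The fall was not confined to the stop. Exons 17, 18 and 19, before it, had means of 10.1, 11.6 and 10.8 over the 6 libraries. The 4 internal exons after it, 22 to 25, had means of 9.31, 9.97, 10.2 and 6.36. Nor was a fall particular to Clock. With genes split at the middle exon of the leading reference model, second-part over first-part coverage was 0.876 in Clock. It was 0.781 in Arntl, 0.371 in Per1, 0.516 in Per3, 0.593 in Cry2 and 0.665 in Nr1d1. In Cry1 and Per2 it was 1.87 and 1.29, and for Nr1d2 and Dbp it could not be formed. The cause of these falls was not tested. For the average of the 14 exons before the stop every propionate value was under every chloride value. Taken singly, exons 15 and 16 were separated in this way and most of the 14 overlapped. Exon 6 went the other way, at 16.3 to 18.0 in propionate and 15.4 to 16.0 in chloride. For the average, the two-sided exact permutation p was 0.1, the smallest that 3 libraries against 3 allow. It was 0.367 after adjustment over 11 such values, which were chosen after the data were seen. This separation is on coverage without the scaling factors, which were 1.09, 0.990 and 1.03 in chloride and 0.971, 0.966 and 0.967 in propionate. On scaled TPM the groups overlapped for Clock. Models that hold the later exons summed to 17.5, 18.2 and 19.8 TPM in chloride and 18.4, 20.9 and 17.3 TPM in propionate, which overlapped.

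**Figure D4:**
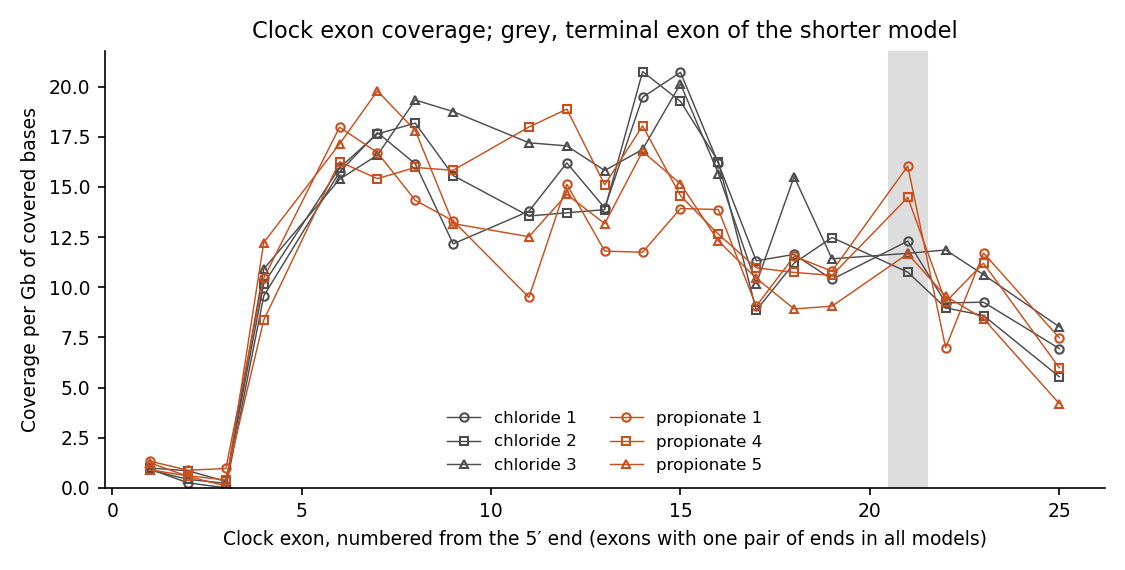
Coverage of each Clock exon per Gb of covered bases in each library, with exons numbered from the 5′ end and only exons with the same ends in all models that hold them. Coverage is low in the first 3 exons drawn, at most 1.33 in any library, and highest among the exons before the stop of the shorter model (grey). It has already fallen in exons 17, 18 and 19, with means of 10.1, 11.6 and 10.8. After the stop, exons 22, 23 and 25 are drawn, with means of 9.31, 9.97 and 6.36.

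The tested clock model with an unadjusted p under 0.05 belongs to Clock. This assembled model of 10349 nt, whose 3′ end lies farthest downstream, stood at 5.10, 8.75 and 7.60 TPM in chloride and 0.849, 1.86 and 1.86 TPM in propionate. All propionate libraries lay below all chloride libraries. The log2 difference was -1.69 (SE 0.28), but it did not pass adjustment over all transcripts (limma, adjusted p = 0.617). It held 29.2%, 48.1% and 38.3% of the level of the 6 models with the last exon in chloride and 4.61%, 8.90% and 10.8% in propionate. Coverage of the last exon as a whole was 8.44, 7.95 and 8.71 in chloride and 7.35, 8.17 and 7.72 in propionate, and these overlap. Reference model ENSMUST00000202651, which differs little in length from it at 10248 nt, stood at 3.75, 0.524 and 1.95 TPM in chloride and 5.45, 3.56 and 5.84 TPM in propionate, which overlap only narrowly.

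Arntl and Clock each had coding exons whose models differ by 3 bases at the upstream end, so that the proteins would differ by a residue. The stretches below come from the annotated transcripts, with the 3 bases that the shorter exon lacks in capitals. Exons are numbered here within those transcripts. In the coverage numbering, which counts the exons of all models, the Clock exon is exon 24 and the Arntl exon is exon 15.
Arntl, exon 13 of 20, bases at chr7:113299187-113299189, plus strand: gttcaaagaaaaaagCAGatcgaaaaagct
Clock, exon 21 of 23, bases at chr5:76229561-76229563, minus strand: agtacatcaactcagCAGagtcaacagagt

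In Arntl the shorter form is held by the assembled models alone. Its share of the level of the models with this exon was 64.2%, 35.7% and 18.0% in chloride and 57.8%, 47.1% and 53.3% in propionate. The chloride libraries spread over the whole range and enclosed the propionate libraries. Read on the reference models alone, Arntl stood at 11.2, 18.8 and 22.6 TPM in chloride and 13.1, 18.1 and 14.6 TPM in propionate. The sign of its difference then turned, with a log2 difference of -0.14 (SE 0.26; limma, adjusted p = 0.942). A further assembled form of Arntl differs by 15 bases at another exon. Of the models with either form of it, those with the shorter exon held 76.9%, 92.7% and 100% in chloride and 69.7%, 75.4% and 82.1% in propionate.

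In Clock the shorter form held 55.6%, 53.4% and 51.4% in chloride and 21.04%, 48.4% and 51.2% in propionate. These are shares of the 6 models with this exon. The leading Clock model, with 50.03% of the gene, ends before the exon and is left out. Each propionate value was under the chloride values, by little for propionate 4 and 5, and the two-sided exact permutation p was again the smallest possible, 0.1. After adjustment over the 11 values it was 0.367. The 3 models with the shorter exon include the model of 10349 nt described above, which was lower in propionate. This share is therefore not independent of that result. Propionate 1 lay far from the others and is a library with fewer covered models. Nr1d2 had an assembled model with an exon longer by 1091 bases than in the reference model, which held 10.98%, 17.2% and 5.23% of the gene in chloride and 12.01%, 14.3% and 3.85% in propionate. Chloride 3 and propionate 5 were the low libraries, and the groups overlapped.

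The wider clock system was read in 5 lists of 83 genes in all, of which 75 could be tested. In limma 0 of 75 passed an adjusted p of 0.05, 5 had an unadjusted p under 0.05 and 9 had groups that did not overlap, shares to be read against 5.09% and 11.7% of all genes. By sign 45 were higher and 30 lower in propionate, with a median log2 difference of 0.02. Of all genes tested 8060 were higher and 7504 lower, and the sign counts of each list below are to be read beside these. The lowest adjusted p in the lists was 0.918. Genes named beyond the 2 with the smallest p of each list were chosen after their values were seen.

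Among 8 tested transcription factors of the secondary loop, 3 had an unadjusted p under 0.05, with a median log2 difference of -0.0031. Rora, an activator of Arntl at the ROR element that REV-ERB receptors occupy in turn, stood at 4.55, 4.83 and 3.54 TPM in chloride and 5.75, 5.93 and 5.66 TPM in propionate. All propionate libraries were above all chloride libraries for Rora, with a log2 difference of 0.36 (SE 0.12; limma, adjusted p = 0.918). Tef, a D-box factor related to Dbp, stood at 14.0, 14.997 and 12.2 TPM in chloride and 16.8, 15.7 and 15.6 TPM in propionate. Its groups did not overlap either, with a log2 difference of 0.21 (SE 0.09; limma, adjusted p = 0.918). The other D-box factor of the family, Hlf, reached no more than 0.420 TPM.

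Among 19 tested enzymes that modify clock proteins, none had an unadjusted p under 0.05, 15 were higher and 4 lower by sign, and the median was 0.03. Csnk1a1, a casein kinase, stood at 154, 158 and 149 TPM in chloride and 163, 167 and 172 TPM in propionate, which did not overlap. The difference on the log2 scale was 0.12 (SE 0.05; limma, adjusted p = 0.918). Csnk1e, a casein kinase that phosphorylates PER proteins, stood at 37.4, 34.3 and 37.9 TPM in chloride and 34.3, 33.1 and 34.8 TPM in propionate, with a log2 difference of -0.10 (SE 0.06).

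Among 16 tested cofactors of clock transcription 1 had an unadjusted p under 0.05, and the median was -0.02. This was Sfpq, an RNA- and DNA-binding partner of PER complexes, at 75.01, 71.8 and 78.2 TPM in chloride and 65.5, 63.7 and 66.4 TPM in propionate. The propionate libraries were all lower, with a log2 difference of -0.20 (SE 0.06; limma, adjusted p = 0.918). Hdac3, the deacetylase that works with REV-ERB receptors, was at 80.3, 78.3 and 82.0 TPM and 87.1, 83.6 and 84.2 TPM, without overlap and with a log2 difference of 0.08 (SE 0.05).

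Among 16 tested output genes 1 had an unadjusted p under 0.05, 12 were higher and 4 lower by sign, and the median was 0.06. Por, the electron donor of cytochrome P450 enzymes, stood at 25.0, 24.8 and 23.8 TPM in chloride and 29.1, 31.2 and 27.3 TPM in propionate. All propionate libraries were above all chloride libraries, with a log2 difference of 0.24 (SE 0.07; limma, adjusted p = 0.918). Wee1, a kinase that holds cells before mitosis, stood at 25.3, 23.4 and 25.3 TPM in chloride and 30.5, 25.5 and 27.0 TPM in propionate. Its groups were separate by a narrow margin, with a log2 difference of 0.16 (SE 0.08). Alas1, the first enzyme of haem synthesis, also had groups that did not overlap, with a log2 difference of 0.12 (SE 0.06).

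Among 16 tested inputs to Per1 and Per2 none had an unadjusted p under 0.05 or separate groups, 8 were higher and 8 lower by sign, and the median was 0.01. Prkaca, a catalytic subunit of the cAMP-dependent kinase, stood at 41.6, 38.8 and 37.3 TPM in chloride and 44.7, 41.2 and 42.9 TPM in propionate. Its groups overlapped through chloride 1, and the log2 difference was 0.13 (SE 0.07; limma, adjusted p = 0.918). Nr3c1, the glucocorticoid receptor, stood at 21.5, 20.7 and 19.2 TPM in chloride and 24.0, 21.4 and 21.1 TPM in propionate, with a log2 difference of 0.11 (SE 0.08).

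**Figure D5:**
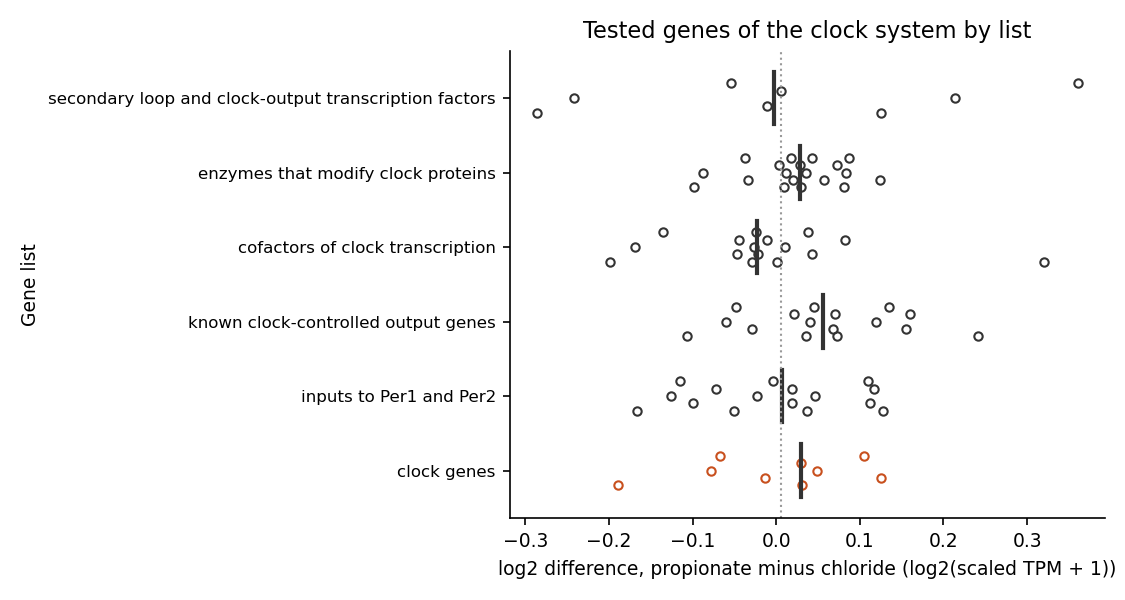
log2 difference of each tested gene of the 5 lists and of the 9 tested clock genes (coloured), propionate minus chloride, on log2(scaled TPM + 1), with a bar at the median of each list and a dotted line at the median of all genes tested. The genes of each list scatter on both sides of 0, and the outermost points are Rora at 0.36 and Ciart at -0.29.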

How the data were processed

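Per the file headers, each library was quantified with StringTie 2.1.1 against a fixed model set merged over the 6 libraries, with no strand option. Per the submitters' processing notes, reads were handled with bcl2fastq, fastp and HISAT2 on mm10; of their settings, none is recorded in the labels. Deposited in each file are TPM, FPKM and coverage per transcript, without read counts. TPM was used, since the authors deposited it summing to 1000000 per library.

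Of 157296 models, 142491 are reference transcripts and 14805 were assembled. An assembled model was joined to the reference gene of its locus with the most shared exonic bases (11811 joined), using GENCODE M21 gene identifiers. Genes whose longest model was under 200 nt were left out. Only genes averaging 1 TPM or more were tested with limma 3.58.1 (R 4.3.3; lmFit and eBayes with a variance trend, two-sided) on log2(scaled TPM + 1), with Benjamini-Hochberg adjustment over 15564 genes or, for transcripts, 35755. A log2 difference on this scale understates the change of low genes. The test was tested on simulated data. Scaling factors ranged from 0.966 to 1.09. A value listed at 0 can be a failed estimate. Coverage of exons came from the exon lines, summed over the models that share an exon and divided by covered Gb, not by the scaling factors.

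Genes named are the 10 members, those past the threshold in each list (where none was, the 2 of lowest p), and the 3 genes most like the member that varied most. In the list of cofactors, 1 of these genes is not reported here. The members and lists were chosen with earlier results of these data known. Alternatives tried were other pseudocounts, filters, scalings, gene definitions, voom on reads estimated from coverage, library weights and leaving out libraries. Promoters are from RefSeq on GRCm38.p6, and transcript stretches from GENCODE M21.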

Additional observations from a re-analysis of the deposited data

How the results depend on the processing

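No paired analysis was possible because the groups share only the replicate number 1. Under 16 alternatives, 0 clock genes and 0 genes of the lists passed an adjusted p of 0.05 (lowest 0.448 and 0.237). An unadjusted p under 0.05 was reached by 0 clock genes except with voom, where Arntl did (0.0228), and by 4 to 13 genes of the lists. With voom it was 11 of 75, beside 1296 of all 15564 genes tested. With library weights it was 13 of 75, beside 2181 of 15564. The 16 include a term for chloride 3 and propionate 1, the libraries with fewer covered models. Under 8 alternatives 0 clock transcripts passed (lowest adjusted p 0.344). Over all genes 1 passed, against 0 with no filter (1425 at an unadjusted p under 0.05) or voom (1296), 2 with a mean of at least 5 TPM, summing over the locus or library weights, 7 in the 4 better-covered libraries and 1 to 3 on leaving out a library, the highest without propionate 1. Over all transcripts 13 passed, and 1 to 26 on leaving out a library. The sign of Cry2, Nr1d1 and Per3 was kept in 15 of 15 alternatives each, although Nr1d1 ranged from -0.33 without chloride 1 to -0.014 without chloride 3. Signs turned for Arntl on reference transcripts alone (-0.14), for Clock on TPM as deposited (-0.046) and with library weights (-0.036), for Per1 on TPM as deposited (-0.029) and in the 4 libraries (-0.020), and for Cry1 on TPM as deposited (-0.059). They also turned for Nr1d2 on reference transcripts alone (0.0039), voom (0.063), library weights (0.068) and the 4 libraries (0.071), and for Dbp with library weights (0.10) and in the 4 libraries (0.056). On leaving out a library, log2 differences ranged from -0.038 to 0.083 for Per1, -0.034 to 0.067 for Cry1, -0.062 to 0.074 for Nr1d2 and -0.16 to 0.0017 for Dbp. The cause was not tested. TPM as deposited moved the median of all genes by -0.089. Depth limits Per1, Per2, Per3, Nr1d1 and Dbp most.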
